A study of Mus musculus with 12 samples.

Results

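The genes of the AP-1 transcription factor and of the immediate early response were followed in mouse embryonic fibroblasts (MEF cells) that expressed a mutant of the metabolic enzyme IDH2, and in MEF cells given the metabolite 2-hydroxyglutarate (2-HG). The 10 genes were Fos, Fosb, Fosl1 and Fosl2 of the Fos family, Jun, Junb and Jund of the Jun family, and Egr1, Ier2 and Ier3, picked by symbol. Each was found in both tables of values, which hold 43280 entries for the IDH2 experiment and 23930 for the 2-HG experiment. The MEF cells came from embryonic day 13.5 of the C57BL/6 strain, and repeated passaging had left a spontaneously immortalized culture. All cells were grown in medium with fetal bovine serum, and no pulse of serum before sampling is described. Cells called 2MUT carried a retroviral vector with a cancer-associated mutant of human IDH2 and had been selected with puromycin, and cells called Control carried that vector without IDH2. Neither of these groups was treated. Cells called 2-HG(+) received 300 μM of membrane-permeant 2-HG for 24 h, and cells called 2-HG(-) received the solvent DMSO for 24 h according to the sample labels, whereas the study describes cells without 2-HG as non-treated. A group held 3 libraries, 12 in all, and the labels do not say whether these came from separate cultures, so p-values measure the spread between these libraries, which may be technical. No library of cells with wild-type IDH2 was analysed here, so an effect of the mutation and an effect of IDH2 overexpression cannot be told apart.

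AP-1 is a dimer of basic leucine zipper proteins. A Jun protein pairs with another Jun protein, with a Fos protein or with a related ATF or MAF protein, and the pair binds DNA at a short palindrome. Fos, Fosb, Jun, Junb, Egr1, Ier2 and Ier3 are immediate early genes: growth factors, serum and stress switch them on within minutes, through ERK and the serum response factor or through JNK and p38, without new protein synthesis, and their transcripts are usually short-lived. Fosl1, which encodes Fra-1, and Fosl2, which encodes Fra-2, are induced later and more lastingly than Fos, and Fosl1 is itself an AP-1 target. Jund is commonly present in resting fibroblasts.

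The stretch of 250 bases before the start of transcription is shown for Fos, Jun, Junb and Ier3, which changed in at least 1 comparison below and had an entry in RefSeq on GRCm38.p6, since serum, cAMP and stress signals reach these genes partly through such DNA. An entry was found for 7 of the 10 members. Capitals mark letters of the motifs searched on both strands. These were the AP-1 site TGAGTCA and the cAMP response element, TGACGTCA. Its first letters, TGACG, were searched on their own as well and are contained in it. The CArG box, to which the serum response factor binds, was searched by its usual form. TATAAA stands for the box that places the start, CCAAT for the site of the factor NF-Y, and GGGCGG for the GC box of the Sp factors. On the opposite strand a GC box reads CCGCCC. Each sequence is written along the gene's own strand, 5′ to 3′, and ends 1 base before the start in RefSeq. GENCODE, which gives the gene positions below, can place the start elsewhere. It starts Ier3 at 35821684, inside the stretch shown, and Junb at 84978718, beyond the end of the stretch at 84978749. Motif positions are counted from the RefSeq start.
Fos, chr12:85473640-85473889, forward strand: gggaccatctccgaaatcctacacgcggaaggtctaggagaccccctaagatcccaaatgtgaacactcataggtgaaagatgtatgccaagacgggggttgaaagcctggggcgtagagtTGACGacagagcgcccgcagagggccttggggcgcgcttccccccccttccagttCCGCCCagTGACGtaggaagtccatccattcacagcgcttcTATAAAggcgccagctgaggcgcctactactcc
Jun, chr4:95052223-95052472, reverse strand: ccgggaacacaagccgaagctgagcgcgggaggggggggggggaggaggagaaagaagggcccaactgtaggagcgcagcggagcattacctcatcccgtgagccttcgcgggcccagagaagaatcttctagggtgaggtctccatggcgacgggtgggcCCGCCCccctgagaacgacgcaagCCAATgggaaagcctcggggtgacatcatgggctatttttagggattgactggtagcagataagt
Junb, chr8:84978749-84978998, reverse strand: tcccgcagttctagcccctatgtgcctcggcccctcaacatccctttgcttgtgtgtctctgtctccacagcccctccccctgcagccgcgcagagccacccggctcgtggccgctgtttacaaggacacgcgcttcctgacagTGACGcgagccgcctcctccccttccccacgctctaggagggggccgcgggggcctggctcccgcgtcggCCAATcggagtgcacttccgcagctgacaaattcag
Ier3, chr17:35821463-35821712, forward strand: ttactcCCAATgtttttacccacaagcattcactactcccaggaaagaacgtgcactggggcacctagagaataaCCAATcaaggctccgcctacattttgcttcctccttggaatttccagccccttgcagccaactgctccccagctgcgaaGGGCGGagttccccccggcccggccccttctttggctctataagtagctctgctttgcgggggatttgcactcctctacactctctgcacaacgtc

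In the Fos stretch, TGACG began at positions -129 and -66, counted back from the start, and TATAAA began at position -33. The Junb stretch held TGACG at position -106 and CCAAT at position -36. In Jun, CCAAT began at position -65, and in Ier3 it began at positions -244 and -175. Of 32851 promoters of the same length, 17.8% held TGACG, 33.8% CCAAT, 12.4% TATAAA and 32.7% GGGCGG. The letters of a CArG box, of TGAGTCA and of TGACGTCA were in none of the 7 member stretches, against 1.47%, 4.46% and 1.55% of all promoters, which says only that these letters are absent from this window. Of the stretches not shown, that of Jund ended at 70697738, well before the GENCODE start at 70698949. That of Fosl2, from 32136222 to 32136471, lay inside the gene as GENCODE places it, with a start at 32135801. No motif was tested for a link to the changes.

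AU-rich letters in the 3′ untranslated region of a message are a known mark of short-lived transcripts. In GENCODE M21, the annotation of GRCm38, the pentamer ATTTA was present there in 9 of the 10 members, all but Ier2, and in 62.6% of 21685 genes. Ier3 held 5 in 616 bases, Fos and Jun 4 each and Fosl2 8 in its long 3′ untranslated region of 4656 bases. The median density was 1.79 per kilobase for the members and 1.35 for all genes with at least 100 bases. Members ranged from 0 in Ier2 and 0.466 in Fosb to 8.12 in Ier3. The longer TTATTTATT, which contains ATTTA, was found in Fos and Fosl2, and in 7.33% of all genes. It was in 9.22% of the 13214 genes whose 3′ untranslated region was within the members' range of lengths. These counts describe the annotated transcripts, and no RNA stability was measured.

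Values are in RPM, the reads of a gene out of every 1000000 that the library has on genes, and come from Ion AmpliSeq libraries, in which 1 short target stands for a gene, so levels of different genes are not compared. Reads on genes were between 6472439 and 7313602 per library in the IDH2 experiment and between 14959318 and 18363768 in the 2-HG experiment. The detection limit was set at 3 reads, which was worth at most 0.464 RPM and 0.201 RPM per library in these experiments. Fosb and Jund lay below the mean of 1 RPM required for a test in the 2-HG experiment, which left 8 members tested there and 10 in the IDH2 experiment. Differences were tested with limma on log2(RPM + 1), and the term log2 fold change refers to that scale, on which changes of genes at low levels look smaller than they are. Of 9 fibroblast markers, 8 were at 1 RPM or more in every group. The epithelial markers Epcam, Krt8, Krt18 and Cdh1 summed to at most 0.6 RPM in any library, 3 endothelial markers to at most 2.78 RPM, and 4 leukocyte markers, of which Cd68 alone reached 1 RPM, to at most 13.4 RPM. Cd68, a marker of macrophages, was lower in 2-HG(+), at 8.46 ± 1.01 RPM against 12.4 ± 1.25 RPM in 2-HG(-) (SD, n = 3 each; log2 fold change -0.51, limma adjusted p = 0.0214), and its value in 2MUT was -0.39 (limma adjusted p = 0.191). The summed fibroblast markers were between 14412 and 16382 RPM in Control and between 13005 and 13455 RPM in 2MUT, and between 21605 and 23250 RPM in 2-HG(-) and between 15239 and 16263 RPM in 2-HG(+). Of the 8 fibroblast markers tested, 6 were lower and 1 higher in 2MUT, and 4 lower and 1 higher with 2-HG, where 17.3% of all genes tested were lower and 16.5% higher in 2MUT and 16.7% and 16.1% with 2-HG. These sums and Cd68 moved with the groups, and their part in the results below was not tested. In bulk RNA, fewer cells that express a gene and less RNA per cell cannot be told apart.

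In 2MUT, Fosl1 and Ier3 rose, and Jun, Junb and Egr1 fell. With 2-HG, Fosl1, Ier3 and Jun rose, and Fos, Junb and Egr1 fell. Of the 10 members tested in 2MUT, 2 were higher and 3 were lower, where 16.5% and 17.3% of all 11065 genes tested were higher and lower (limma, Benjamini-Hochberg adjusted p under 0.05). The groups did not overlap for 7 of the 10, against 47.5% of all genes. Of the 8 members tested with 2-HG, 3 were higher and 3 were lower, where 16.1% and 16.7% of 10384 genes were. The groups did not overlap for 6 of these 8, against 46.3% of all genes. Egr1 and Ier3 stand in the list of genes changed in both comparisons that the study chose on these same libraries. Their calls here do not count as independent evidence.

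**Figure D1:**
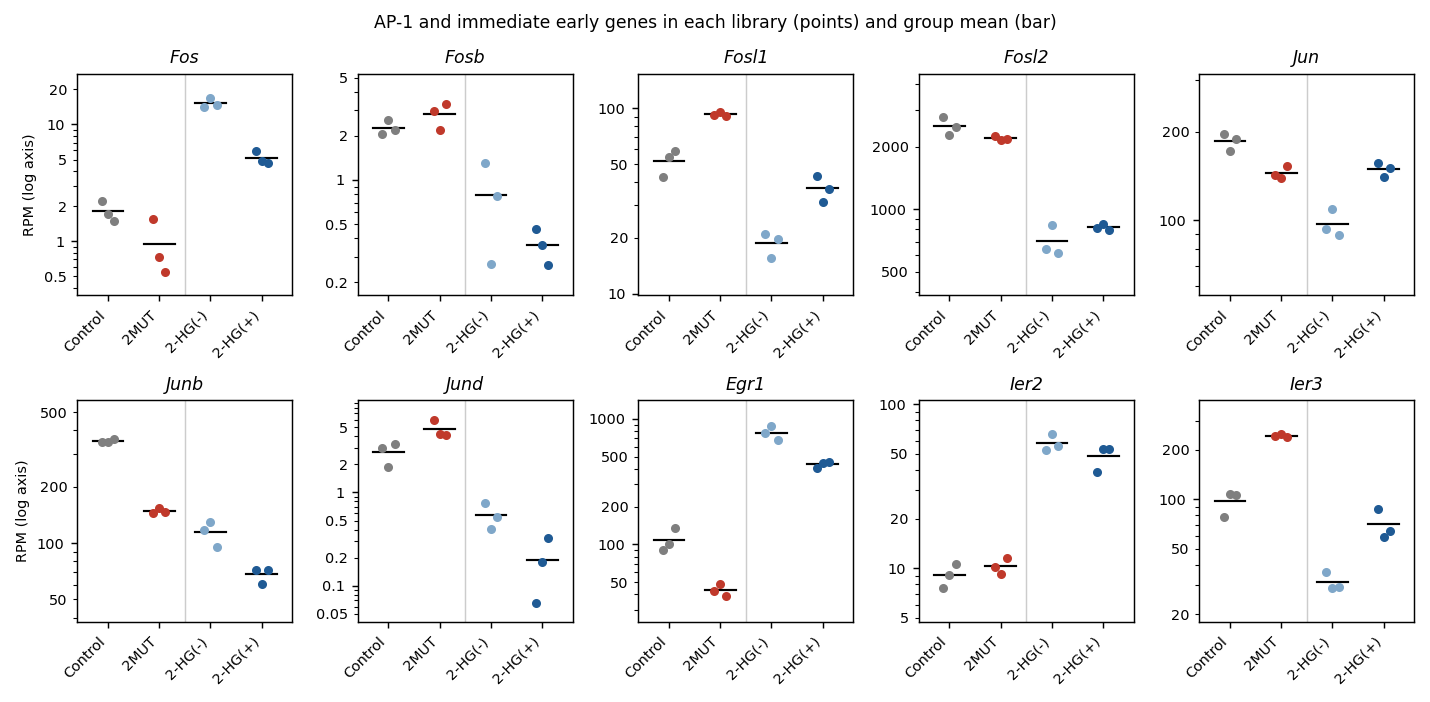
Level of each of the 10 genes in RPM (logarithmic axis, with its own range for each gene) in the 3 libraries of Control, 2MUT, 2-HG(-) and 2-HG(+); points are libraries, black bars are group means, and the grey line parts the experiments, which were normalized separately. Junb and Egr1 are lower and Fosl1 and Ier3 higher in both 2MUT and 2-HG(+) than in their control groups, with no overlap, whereas Jun lies lower in 2MUT and higher in 2-HG(+).

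Fos, on chromosome 12 from 85473890 to 85477273 in GRCm38 with 4 exons, encodes c-Fos, the most transient partner of Jun. In Control it was at 2.22, 1.71 and 1.5 RPM, from 15, 12 and 11 reads, and in 2MUT at 1.54, 0.73 and 0.55 RPM, from 10, 5 and 4 reads. One 2MUT library lay within the range of Control, and the log2 fold change of -0.56 did not pass the threshold (95% confidence interval -1.16 to 0.04, limma, adjusted p = 0.138). In the 2-HG experiment Fos was far better covered, at 14.0, 16.9 and 14.7 RPM in 2-HG(-), from 244 to 257 reads, and at 5.88, 4.87 and 4.71 RPM in 2-HG(+), from 72 to 89 reads. Every 2-HG(+) library was below every 2-HG(-) library. Its mean was 15.2 ± 1.53 RPM in 2-HG(-) and 5.15 ± 0.638 RPM in 2-HG(+) (SD, n = 3 each), and Fos fell by 1.40 on the log2 scale with a standard error of 0.14 (limma, adjusted p = 9.44e-05). This was the largest fall on this scale among the members tested in either comparison.

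Fosb, the closest relative of Fos, lies on chromosome 7 from 19302696 to 19310051 on the reverse strand. It was at 2.07, 2.56 and 2.19 RPM in Control and at 2.94, 2.20 and 3.30 RPM in 2MUT, and the groups overlapped. These values rest on 14 to 24 reads, and the log2 fold change of 0.21 (95% interval -0.29 to 0.71, limma, adjusted p = 0.505) leaves both a small fall and a rise within its interval. In the 2-HG experiment Fosb was at 1.31, 0.267 and 0.781 RPM in 2-HG(-) and at 0.463, 0.361 and 0.261 RPM in 2-HG(+), from 4 to 24 reads. The second 2-HG(-) library lay within the range of 2-HG(+), and no difference was detectable at this depth.

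Fosl1 lies on chromosome 19 from 5447547 to 5455946. The Control libraries were at 42.5, 54.6 and 58.5 RPM and the 2MUT libraries at 91.6, 95.6 and 90.8 RPM. All 2MUT libraries were above all Control libraries, and those of 2MUT were closely spaced. Fosl1 rose from 51.9 ± 8.36 RPM to 92.7 ± 2.56 RPM (SD, n = 3 each). On the log2 scale this was 0.84 with a standard error of 0.13 (limma, adjusted p = 0.00066). With 2-HG it rose from 21.1, 15.6 and 19.7 RPM to 43.1, 31.3 and 36.8 RPM, again without overlap. The log2 fold change was 0.94 with a standard error of 0.16 (limma, adjusted p = 0.00153). Ccdc85b, which overlaps Fosl1 on the other strand, was listed at 0.19 RPM or less in the IDH2 experiment and has no entry in the other table.

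Fosl2 lies on chromosome 5 from 32135801 to 32157842. It was at 2788, 2271 and 2486 RPM in Control and at 2245, 2152 and 2185 RPM in 2MUT. All 2MUT libraries were below all Control libraries, although the lowest Control library and the highest 2MUT library were close. The log2 fold change of -0.19 did not pass the threshold (95% interval -0.39 to 0.01, limma, adjusted p = 0.129). In 2-HG(-) it was at 645, 844 and 617 RPM, and in 2-HG(+) at 810, 854 and 799 RPM, so that the second 2-HG(-) library lay within the range of 2-HG(+). The log2 fold change of 0.24 did not pass the threshold (95% interval -0.04 to 0.52, limma, adjusted p = 0.178), and without that library it was 0.38 and did (limma, adjusted p = 0.0194).

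Jun, on chromosome 4 from 95049034 to 95052222 on the reverse strand, has a single exon and encodes c-Jun, the substrate of JNK. It was at 196, 172 and 189 RPM in Control and at 142, 140 and 153 RPM in 2MUT, without overlap. Jun fell from 186 ± 12.4 RPM to 145 ± 7.18 RPM (SD, n = 3 each). On the log2 scale this was -0.36 with a standard error of 0.10 (limma, adjusted p = 0.0161). The call was lost without the first 2MUT library (-0.34, limma adjusted p = 0.0601) or without the second (-0.33, limma adjusted p = 0.0675). With 2-HG, Jun went the other way, from 93.3, 109 and 88.9 RPM in 2-HG(-) to 156, 140 and 151 RPM in 2-HG(+). All 2-HG(+) libraries were above all 2-HG(-) libraries. The log2 fold change was 0.62 with a standard error of 0.11 (limma, adjusted p = 0.00199). The antisense gene Junos, which overlaps Jun, was listed at 0.67 RPM or less in every group.

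Junb, on chromosome 8 from 84974484 to 84978718 on the reverse strand, encodes a Jun protein that often restrains c-Jun. In Control it stood at 347, 345 and 361 RPM, and in 2MUT at 145, 153 and 146 RPM. The groups were far apart and each was tight. Junb fell from 351 ± 8.75 RPM to 148 ± 4.35 RPM (SD, n = 3 each). On the log2 scale this was -1.24 with a standard error of 0.09 (limma, adjusted p = 2.87e-06). With 2-HG it fell from 118, 130 and 95.3 RPM to 72.1, 60.7 and 71.4 RPM. The 2-HG(-) libraries were more spread out but all above those of 2-HG(+), and the log2 fold change was -0.73 with a standard error of 0.13 (limma, adjusted p = 0.00248). The annotated span of Junb overlaps Prdx2, a peroxiredoxin gene on the other strand, and the counting is not stated to use strand. Prdx2 fell from 883 to 565 RPM in 2MUT (log2 fold change -0.64, limma adjusted p = 0.000146) and was at 983 and 1055 RPM in 2-HG(-) and 2-HG(+) (0.10, limma adjusted p = 0.5). Whether reads of Prdx2 were counted on Junb was not tested.

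Jund, a gene without introns on chromosome 8 from 70698949 to 70700616, had few reads here. It was at 2.96, 1.85 and 3.28 RPM in Control, from 13 to 24 reads, and at 6.03, 4.25 and 4.13 RPM in 2MUT, from 29 to 39 reads. The groups did not overlap, but the log2 fold change of 0.66 did not pass the threshold (95% interval 0.12 to 1.19, limma, adjusted p = 0.0569). Without the third Control library it was 0.77 and did pass (limma, adjusted p = 0.04). In the 2-HG experiment Jund was at 0.762, 0.401 and 0.54 RPM in 2-HG(-) and at 0.066, 0.18 and 0.327 RPM in 2-HG(+), from 14 down to 1 read. The first 2-HG(+) library had 1 read, with an exact binomial 95% interval (Clopper-Pearson) of 0.0017 to 0.368 RPM, which covers counting error only. All 2-HG(+) libraries were below all 2-HG(-) libraries, but Jund did not reach the mean of 1 RPM, and only with no filter was there a test, with a log2 fold change of -0.40 (limma, adjusted p = 0.033).

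Egr1 encodes a zinc finger factor that is switched on through the serum response factor, and it lies on chromosome 18 from 34859823 to 34864984. It was at 89.4, 100.0 and 135 RPM in Control and at 42.5, 48.5 and 38.7 RPM in 2MUT. All 2MUT libraries were below all Control libraries. Egr1 fell from 108 ± 23.6 RPM to 43.2 ± 4.94 RPM (SD, n = 3 each). On the log2 scale this was -1.29 with a standard error of 0.16 (limma, adjusted p = 0.000125). In the 2-HG experiment it fell from 774, 876 and 673 RPM to 406, 444 and 454 RPM, again without overlap. The log2 fold change was -0.82 with a standard error of 0.12 (limma, adjusted p = 0.000607).

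Ier2 encodes a small nuclear protein and is an early target of serum and growth factors. It lies on chromosome 8 from 84661331 to 84662852. The groups overlapped in both experiments, with 7.55, 9.12 and 10.7 RPM in Control and 10.2, 9.22 and 11.6 RPM in 2MUT. The 2-HG(-) libraries were at 52.6, 66.1 and 56.0 RPM and the 2-HG(+) libraries at 38.5, 53.7 and 53.6 RPM. The log2 fold changes were 0.17 (95% interval -0.24 to 0.58, limma, adjusted p = 0.512) and -0.27 (95% interval -0.60 to 0.07, limma, adjusted p = 0.208). Neither passed the threshold, and the intervals allow changes in either direction.

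Ier3, also known as IEX-1, encodes a protein linked to cell survival and ERK signalling and lies on chromosome 17 from 35821684 to 35822923. It was at 78.1, 108 and 106 RPM in Control and at 242, 249 and 238 RPM in 2MUT, so every 2MUT library was above every Control library. Ier3 rose from 97.4 ± 16.7 RPM to 243 ± 5.70 RPM (SD, n = 3 each). On the log2 scale this was 1.33 with a standard error of 0.13 (limma, adjusted p = 2.56e-05). With 2-HG it rose from 36.4, 28.9 and 29.5 RPM to 87.9, 59.2 and 64.3 RPM, without overlap. The log2 fold change was 1.12 with a standard error of 0.16 (limma, adjusted p = 0.000705). The first 2-HG(+) library stood above the others of its group, and without it the log2 fold change was 0.95 (limma, adjusted p = 0.000812). Ier3 had the largest rise of a member in each comparison.

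The change of each member was compared between the experiments by limma's contrast over all 12 libraries, in which a positive value means a more positive change in 2MUT than with 2-HG. Of the 8 members tested, 1 was more positive and 2 were more negative in 2MUT, where 19.9% and 19.5% of 9594 genes were. Jun differed most, by -0.97 with a standard error of 0.14 (limma, adjusted p = 0.000118), with a fall in 2MUT and a rise with 2-HG. This difference passed the threshold under each of the 20 alternatives. The change of Junb was more negative in 2MUT, by -0.51 (limma, adjusted p = 0.0212), but the call was lost with the replicate number as a block (limma adjusted p = 0.0564) and without the third 2-HG(-) library (-0.39, limma adjusted p = 0.0534). For Fos the difference was 0.84 (limma, adjusted p = 0.0278). That call was lost on another scale: on recovered reads Fos had a log2 fold change of -0.95 in 2MUT and -1.54 with 2-HG, and edgeR gave a difference of 0.61 with an adjusted p of 0.323. The call for Fos was also lost without Control replicate 3, 2MUT replicate 1, 2-HG(-) replicate 2, 2-HG(+) replicate 2 or 2-HG(+) replicate 3, with differences of 0.76, 0.63, 0.76, 0.81 and 0.79 (limma adjusted p = 0.0534, 0.0616, 0.0663, 0.0604 and 0.0608).

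No difference passed the threshold for Fosl1 (-0.10, 95% interval -0.56 to 0.36), Ier3 (0.21, -0.27 to 0.68), Egr1 (-0.46, -0.90 to -0.02), Fosl2 (-0.43, -0.78 to -0.08) or Ier2 (0.44, -0.06 to 0.93), with limma adjusted p-values of 0.731, 0.492, 0.0889, 0.0516 and 0.155. The intervals are not adjusted for the number of genes. The call for Egr1 was gained without the first Control library (-0.59, limma adjusted p = 0.0353), and that for Fosl2 without the second Control library (limma adjusted p = 0.0346) or the second 2-HG(-) library (limma adjusted p = 0.00484). Among the 9594 genes tested in both, Fosl1 and Ier3 were 2 of the 144 genes (1.5%) higher in both, and Junb and Egr1 were 2 of the 294 (3.06%) lower in both. Jun was 1 of 497 genes (5.18%) lower in 2MUT and higher with 2-HG. Fos was 1 of 869 (9.06%) with no call in 2MUT and a fall with 2-HG, and Fosl2 and Ier2 were among the 4516 (47.1%) with no call in either.

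**Figure D2:**
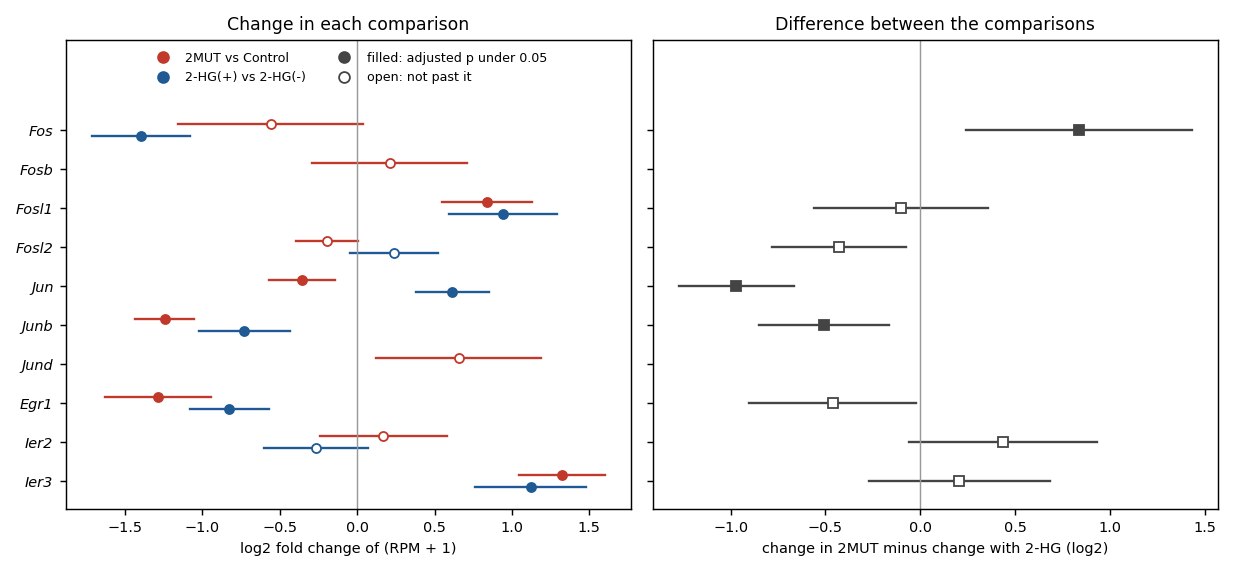
Left, log2 fold change of (RPM + 1) of each member in 2MUT against Control (red) and 2-HG(+) against 2-HG(-) (blue); right, the change in 2MUT minus the change with 2-HG (squares). Lines are 95% confidence intervals from limma over 3 libraries a group, filled symbols have an adjusted p under 0.05, and Fosb and Jund were not tested with 2-HG. Only Jun has called changes of opposite sign, -0.36 in 2MUT and 0.62 with 2-HG.

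The levels in the control groups, Control and 2-HG(-), were set side by side for the members. Mean levels were 1.81 RPM in Control and 15.2 RPM in 2-HG(-) for Fos, 108 and 774 RPM for Egr1, and 9.11 and 58.2 RPM for Ier2. These 3 genes were higher in 2-HG(-) than in Control, by ratios of 8.39, 7.17 and 6.39. The other 7 members were lower there, with ratios from 0.21 for Jund to 0.52 for Jun. The tables were normalized separately and the cells differ in vector, selection, DMSO and experiment, so these levels are given without a test. On the log2(RPM + 1) scale, 17.4% of the 10465 genes with an entry in both tables and a mean of at least 1 RPM over the Control and 2-HG(-) means differed by at least 2, and Fos, Egr1 and Ier2 were among them with 2.53, 2.83 and 2.55.

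Genes of the same pathways were taken as lists chosen with earlier results of these data known. Of the other leucine zipper factors that can pair with AP-1 proteins, 1 of 11 tested was higher and 2 were lower in 2MUT, with a median log2 fold change of -0.02 against 0.01 for all genes. With 2-HG, 3 of 10 were higher and 1 was lower, with a median of 0.10 against -0.02. Over all genes, 16.5% were higher and 17.3% lower in 2MUT and 16.1% and 16.7% with 2-HG, so the counts in 2MUT were near or below these shares. Atf3, a stress-induced partner of Jun, rose in both, from 8.76 ± 1.38 to 24.7 ± 3.48 RPM in 2MUT (log2 fold change 1.40, limma adjusted p = 0.000162) and from 6.33 ± 0.37 to 36.7 ± 5.29 RPM with 2-HG (2.36, limma adjusted p = 4.1e-06; SD, n = 3 each). Atf3 also stands in the list the study chose on these libraries. Atf4, the main factor of the integrated stress response, rose with 2-HG from 430 ± 92.0 to 1219 ± 30.6 RPM (SD, n = 3 each), and Maf fell from 96.6 ± 4.26 to 32.0 ± 3.23 RPM (SD, n = 3 each). In 2MUT, Batf2 and Jdp2, a repressor of AP-1, fell by 0.35 and 0.29 on the log2 scale. Batf2 was at 386 RPM in Control and 302 RPM in 2MUT, but at 0.042 RPM in 2-HG(-) and 0 RPM in 2-HG(+). It was therefore not tested with 2-HG, and the cause of this gap between the experiments was not tested.

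Other immediate early genes were called in both directions, as were all genes (16.5% higher and 17.3% lower in 2MUT, 16.1% and 16.7% with 2-HG). In 2MUT, 8 of 23 were higher and 8 were lower, with a median of -0.20 against 0.01 for all genes, and with 2-HG 5 of 26 were higher and 7 were lower, with a median of -0.03 against -0.02. Ptgs2, the inducible cyclooxygenase, Hbegf, a ligand of the EGF receptor, and Rhob, a small GTPase, rose in 2MUT, with log2 fold changes of 1.6, 1.48 and 1.38. Ptgs2 and Hbegf also rose with 2-HG (0.75 and 0.74) and were chosen by the study on these libraries. With 2-HG, Myc rose (0.80), and Gem and Zfp36 fell (-1.34 and -0.78). Gem, a small GTPase, changed the other way in 2MUT, where it rose (0.38, limma adjusted p = 0.0241). Zfp36, whose product binds AU-rich messages and speeds their decay, fell in 2MUT as well (-0.97, limma adjusted p = 0.000254).

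For the route from receptor to the serum response factor, 4 of 20 genes were higher and 4 lower in 2MUT, and 2 of 20 were higher and 1 lower with 2-HG. Of all genes tested, 16.5% were higher and 17.3% lower in 2MUT, and 16.1% and 16.7% with 2-HG. Srf itself fell in 2MUT from 45.3 ± 2.61 to 23.3 ± 1.57 RPM (SD, n = 3 each; log2 fold change -0.93, limma adjusted p = 0.000287), and with 2-HG it had a value of -0.28 that did not pass (limma adjusted p = 0.213). Mkl1, a cofactor of Srf, rose in 2MUT (0.74) and fell with 2-HG (-0.56). Mapk3, which encodes ERK1, fell in 2MUT (-0.71), and Hras rose with 2-HG (0.40). The list medians were 0.12 in 2MUT and 0.01 with 2-HG, against 0.01 and -0.02 for all genes.

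In the JNK and p38 list, 5 of 11 genes were higher and 1 was lower in 2MUT, and 0 of 10 were higher and 2 lower with 2-HG, beside 16.5% higher and 17.3% lower of all genes in 2MUT and 16.1% and 16.7% with 2-HG. The number higher with 2-HG was also 0 at an unadjusted limma p under 0.05, by edgeR and by DESeq2. Mapk8, which encodes JNK1, rose in 2MUT from 42.3 ± 3.89 to 89.4 ± 5.59 RPM (SD, n = 3 each; log2 fold change 1.07, limma adjusted p = 6.65e-05). Map2k3, a kinase of p38, rose in 2MUT (0.82) and fell with 2-HG (-0.51). Map2k7, a kinase of JNK, rose in 2MUT (0.45) and fell with 2-HG (-0.34), and Rps6ka4, a kinase downstream of p38, fell in 2MUT (-0.49). The list medians were 0.33 and -0.06, against 0.01 and -0.02 for all genes.

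Of the phosphatases and Sprouty-type inhibitors that switch these kinases off, 5 of 13 were higher and 0 lower in 2MUT, and 4 of 12 were higher and 0 lower with 2-HG. The shares over all genes were 16.5% higher and 17.3% lower in 2MUT and 16.1% and 16.7% with 2-HG. The list medians were 0.19 and 0.16, against 0.01 and -0.02 for all genes. At an unadjusted limma p under 0.05, 3 were lower in 2MUT and 0 with 2-HG, and on recovered reads edgeR called 0 lower in both and DESeq2 called 1 lower in 2MUT and 0 with 2-HG. Dusp1, a phosphatase of JNK, p38 and ERK and itself an immediate early gene, rose in 2MUT from 26.2 ± 2.83 to 198 ± 9.59 RPM (SD, n = 3 each; log2 fold change 2.87, limma adjusted p = 8.07e-08), whereas its value with 2-HG was -0.05 (limma adjusted p = 0.828). Spred2 and Spred1, inhibitors of the step from Ras to Raf, rose in 2MUT (0.61 and 0.39). Dusp14, Dusp10 and Dusp16 rose with 2-HG (0.56, 0.48 and 0.35).

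Among known AP-1 target genes, 2 of 10 were higher and 3 were lower in 2MUT, and 1 of 13 was higher and 5 were lower with 2-HG. For all genes these shares were 16.5% higher and 17.3% lower in 2MUT and 16.1% and 16.7% with 2-HG. Spp1, which encodes osteopontin, and the cyclin gene Ccnd1 fell in 2MUT, with log2 fold changes of -1.75 and -1.55, and Hmox1, the inducible heme oxygenase, rose (0.93). With 2-HG, Mmp9, a matrix metalloproteinase that the study chose on these libraries, fell from 11.2 ± 1.47 to 1.69 ± 0.551 RPM (SD, n = 3 each; -2.19, limma adjusted p = 2.59e-05). In the IDH2 experiment Mmp9 was too low for a test, at 1.81 RPM in Control and 0.046 RPM in 2MUT, without overlap. Fgf7, a fibroblast growth factor, fell with 2-HG as well (-0.69), whereas it rose in 2MUT (0.28, limma adjusted p = 0.0208). Plaur, the urokinase receptor, rose with 2-HG (0.87). The list medians were -0.35 in 2MUT and -0.16 with 2-HG, against 0.01 and -0.02 for all genes.

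**Figure D3:**
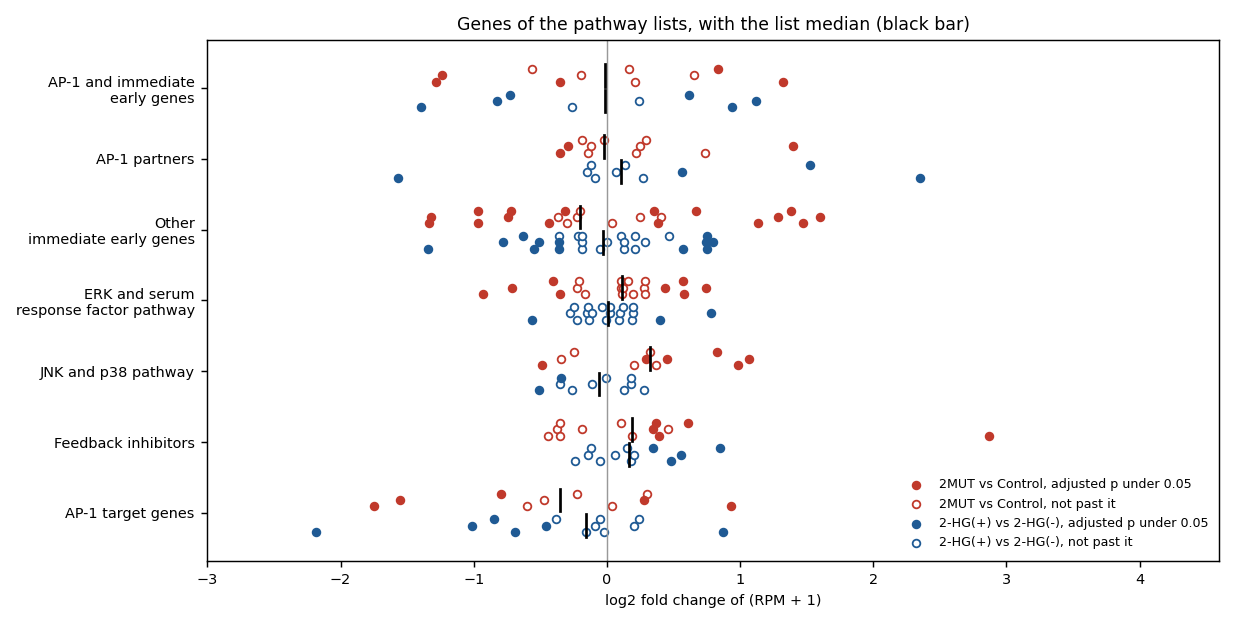
Log2 fold change of (RPM + 1) of every tested gene of the members and of the 6 pathway lists in 2MUT against Control (red) and 2-HG(+) against 2-HG(-) (blue); filled points have a limma adjusted p under 0.05 and black bars are list medians. The point farthest to the right is Dusp1 in 2MUT at 2.87, and most list medians lie near 0.

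For the 6 members with at least 10 RPM in both tables, the genes with the most similar pattern over the 12 libraries were found by Pearson's r of log2(RPM + 1) around the mean of each table, among 6730 genes. These values describe libraries that share their groups, and no p is given. Jun was most like Ddit3 (0.987), the stress-induced factor CHOP, followed by Dcbld2 and Tbc1d31 (both 0.978). Junb was most like Cyp39a1 (0.984), Col3a1 (0.981) and Ccl5 (0.979), and Egr1 was most like Cpt1c (0.967), Ccl5 (0.964) and Sema3a (0.963). Ier3 had its highest values with Slc2a1 (0.968), which encodes the glucose transporter Glut1, Dusp3 (0.957) and Slc35b1 (0.951). Fosl1 came closest to Me2 (0.953), Klhl2 (0.948) and Slc35b1 (0.942), and Fosl2 to Pitpnb (0.912), Rrp8 (0.906) and Thumpd3 (0.905).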

How the data were processed

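RNA of MEF cells was profiled in 12 libraries, 3 in each of 4 groups taken from the sample labels. The authors prepared Ion AmpliSeq libraries and mapped their reads with TMAP on the AmpliSeq mouse reference. Reads per gene came from the AmpliSeqRNA plug-in (v5.2.0.3, Torrent Suite v5.2.2), and the authors deposited them as RPM, with 1 table for each experiment. The genome build behind that reference is not given in the sources used here. Values were whole multiples of 1 read (tolerance 0.1) for 100% of the low values examined, from which reads and depth were recovered.

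Within each table, limma 3.58.1 in R 4.3.3 was run with a mean-variance trend on log2(RPM + 1) for genes that averaged 1 RPM or more over its 6 libraries, with Benjamini-Hochberg adjustment over all of them and a threshold of 0.05. This takes the place of the study's unmoderated test, which was an alternative. The difference between the experiments was a contrast over 12 libraries for 9594 genes with the same name in both tables. The other alternatives were an added value of 0.1, no filter, a filter at 10 RPM, median-of-ratios scaling, edgeR 4.0.16 and DESeq2 1.42.0 on recovered reads, a block for the replicate number, and fits that each lacked 1 library. List counts were repeated with edgeR and DESeq2 alone. The fits were tested on simulated data.

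Members and gene lists were chosen with earlier results of these data known. Named in the text are all 10 members, up to 3 genes of each list and comparison with the largest absolute log2 fold change among those past the threshold with at least 10 RPM in the higher group, the 3 genes most like each member, and genes that overlap a member. A gene that this rule covers is not reported here. Coordinates and exons come from GENCODE M21 on GRCm38. Promoters come from RefSeq on GRCm38.p6, and where the AmpliSeq targets lie was not used here. Python 3.11.15 with pandas 2.3.3, scipy 1.17.1 and matplotlib 3.10.9 served for tables and plots.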

Additional observations from a re-analysis of the deposited data

Results flagged for a closer look

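Changes of 3 members differed between the experiments by limma's contrast over 12 libraries, written as the change in 2MUT minus the change with 2-HG on the log2 scale. The value for Jun was -0.97 (limma, Benjamini-Hochberg adjusted p = 0.000118), with a fall in 2MUT and a rise with 2-HG, and all 3 libraries of each treated group lay on 1 side of their controls. For Junb it was -0.51 (limma, adjusted p = 0.0212), with falls in both, and the call was lost with the replicate block (limma adjusted p = 0.0564) and without 2-HG(-) replicate 3 (-0.39, limma adjusted p = 0.0534). The value for Fos was 0.84 (limma, adjusted p = 0.0278), and its call was lost in 8 of 19 alternatives, among them an added value of 0.1 (0.57, limma adjusted p = 0.32), edgeR (0.61, adjusted p = 0.323) and DESeq2 (0.62, adjusted p = 0.325). Fos had 4 to 15 reads per library in the IDH2 experiment and 72 to 257 in the 2-HG experiment, and the part of this depth in the difference was not tested.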

How the results depend on the processing

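The direction and call of every member change in 2MUT and with 2-HG held under each alternative, except that the call for Jun in 2MUT was lost without 2MUT replicate 1 or 2 (-0.34 and -0.33), that for Jund in 2MUT was gained without Control replicate 3 (0.77), and that for Fosl2 with 2-HG was gained without 2-HG(-) replicate 2 (0.38). With no filter, Jund and Fosb were tested with 2-HG as well. Jund was lower (-0.40), and Fosb had a value of -0.35 that did not pass (limma adjusted p = 0.268). Where a filter removed a member, no value was obtained. Of the values under the alternatives for member changes and differences that were tested in the report, 386 kept direction and side of the threshold, 12 lost the call, 6 gained it and 2 turned. The turned values are those of the difference for Fosl1, which was -0.10 with all libraries, 0.017 without 2-HG(-) replicate 2 and 0.008 without 2-HG(+) replicate 1, and lay between -0.24 and 0.017 over all left-out libraries. The cause was not tested.

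The number of members with a more positive change in 2MUT, 1 in the report, was 0 with an added value of 0.1, 2 without a filter, 0 at 10 RPM, where Fos was not tested, 0 with edgeR and 0 with DESeq2. Left-out libraries gave 0 to 1, the 0 without Control replicate 3, 2MUT replicate 1, 2-HG(-) replicate 2 or 2-HG(+) replicate 2 or 3. The call for Fos was lost in 8 of 19 alternatives, with values from 0.57 to 0.81 and adjusted p from 0.0534 to 0.325. The difference for Fosl2 was called at 10 RPM (-0.43, adjusted p = 0.0482). The number with a more negative change, 2 in the report, was 1 with the replicate block and from 1 to 3 with left-out libraries. Over all genes, the unmoderated test gave 1021 higher and 1223 lower genes in 2MUT and 1098 and 1139 with 2-HG, and left-out libraries gave 1271 to 1926, 1484 to 1880, 1146 to 1745 and 1176 to 1580. With median-of-ratios scaling, 1895 genes were higher and 1664 lower with 2-HG.

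Of the list counts in 2MUT, edgeR and DESeq2 gave 2 higher AP-1 partners in place of 1, edgeR gave 5 lower fibroblast markers in place of 6, and DESeq2 gave 2 higher fibroblast markers in place of 1, 9 higher other immediate early genes in place of 8, 5 higher genes of the ERK and serum response factor list in place of 4 and 1 lower feedback inhibitor in place of 0. With 2-HG, DESeq2 gave 2 higher AP-1 targets in place of 1 and 6 higher other immediate early genes in place of 5. The other counts of these lists within the 2 experiments were the same with both tools.

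Replicate numbers did not pair the libraries: deviations of same-numbered libraries correlated at 0.0708, 0.0293 and 0.0319 in the IDH2 experiment and at -0.457, -0.158 and 0.0572 in the 2-HG experiment. Libraries of different numbers correlated at -0.138 to 0.0888 in the IDH2 experiment and at -0.414 to 0.48 in the 2-HG experiment. The highest value was that of 2-HG(-) replicate 2 with 2-HG(+) replicate 1. What such libraries shared was not tested, and a block by number does not cover it. With the replicate block, 1911 genes were higher and 1987 lower in 2MUT, and 1217 and 1286 with 2-HG. The block changed no call of a member other than the difference for Junb (-0.51, limma adjusted p = 0.0564). Depth limits Fosb, Jund and, in the IDH2 experiment, Fos, which rest on at most 39 reads per library.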
